A study of Homo sapiens with 6 samples.

Results

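Polyamine metabolism was examined through 10 genes, ODC1, AMD1, SRM, SMS, OAZ1, OAZ2, AZIN1, SAT1, SMOX and PAOX. They were chosen by name, as the genes that make, regulate and break down polyamines, with earlier results of these data known. They were found among the 61496 features of the count table by their Ensembl identifiers. All 10 passed the filter on low counts. The data were RNA sequencing libraries of U251, an established human glioma cell line grown in DMEM with serum. There were 3 libraries of untreated cells (control) and 3 libraries of cells exposed for 2 h to the anesthetic gas sevoflurane (Sev). The labels list Sev at 1.7%, 3.4% and 5.1% and tie no concentration to a single library, whereas the description of the sequencing plot names 5.1%. They do not say whether the replicates were separate cultures, so the p-values measure the spread between these libraries, which may be technical.

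Polyamines are small positively charged molecules that bind RNA, DNA and proteins, and proliferating cells, including those of glial tumors, need them to grow. Putrescine is made from ornithine by ornithine decarboxylase, and spermidine and spermine are built from it with aminopropyl groups donated by decarboxylated S-adenosylmethionine. Antizymes bind ornithine decarboxylase and send it to the proteasome, antizyme inhibitors release it, and acetylation and oxidation carry the higher polyamines back toward putrescine.

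The libraries held 38624292 to 46318311 counts. Levels are given as CPM, counts scaled to library size, after TMM normalization, which scales libraries so that most genes do not differ, and each fold change is Sev against control with n = 3 libraries per group. Adjusted p-values are from the quasi-likelihood test of edgeR, adjusted by Benjamini-Hochberg over the 27514 features tested. Of the glial and glioma markers, VIM, NES, SOX2 and GFAP were present in all libraries and AQP4 fell below the filter. The summed glial markers were at 7630 to 8561 CPM in control and 8675 to 9168 CPM in Sev, with 1 of 8 markers (CD44) higher and 2 (SOX2 and S100B) lower. Most of this sum was VIM, at 5485 and 6150 CPM on average, and NES, at 1465 and 1513 CPM, and neither passed the test. The summed microglia and leukocyte markers went from 6.18 to 8.46 CPM in control to 12.1 to 14.2 CPM in Sev. AIF1 and TYROBP were at 0 in every library, and PTPRC fell below the filter. CD68 was at 2.14 to 5.14 CPM and did not pass the test (adjusted p = 0.111, edgeR). In this list 2 of 6 were higher, CSF1R (adjusted p = 0.0201) and ITGAM, which had 2, 3 and 0 counts in control and 69, 33 and 130 in Sev (adjusted p = 0.00117). The 4 endothelial markers summed to 8.13 to 10.3 CPM and 9.21 to 12.8 CPM, with 2 higher (PECAM1 and CLDN5). The 4 neuronal markers summed to 16.3 to 18.2 CPM and 22.6 to 24.9 CPM, with 1 higher (SYT1) and STMN2 at 0. The 4 oligodendrocyte markers summed to 5.11 to 7.57 CPM and 7.56 to 8.68 CPM, with 1 higher (MBP). None of the markers in these 4 lists was called lower. The part of these shifts in the results was not tested. In bulk libraries fewer cells of a type and less RNA per cell cannot be told apart.

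Of the 10 genes, 5 were higher and 1 was lower in Sev at an adjusted p under 0.05. Among all features tested, 22.1% were higher and 21.5% were lower by the same rule. The synthesis enzymes ODC1, AMD1 and SRM, the antizyme inhibitor AZIN1 and the spermine oxidase SMOX rose. The acetyltransferase SAT1 fell. The spermine synthase SMS, the antizymes OAZ1 and OAZ2 and the oxidase PAOX did not pass the test. The median log2 fold change of the 10 genes was 0.28, and that of all features tested was −0.0056, with quartiles of −0.55 and 0.48. The median of the 10 genes was 0.53 without control 1, 0.51 with the replicate number as a block and 0.14 with library size only. The study's threshold asks for a log2 fold change beyond 1 in either direction and an unadjusted p under 0.05. With it, 2 of the genes (ODC1 and SMOX) were higher and 0 were lower, against 11.4% and 12.0% of all features.

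The promoter stretches below are shown because ODC1, SRM and AMD1 rose while SAT1 fell. They are from the RefSeq promoter table on GRCh38.p14, which held 7 of the 10 genes and did not hold AZIN1, SMOX and PAOX. Only bases outside the exons of GENCODE 29 are printed, from 5′ to 3′ on the strand of the gene, and capitals mark each E-box, CACGTG, the site bound by MYC and related factors. The ODC1 stretch is chr2:10447983-10448120 on the minus strand, which follows the first annotated exon and holds a RefSeq start site. The SRM stretch is chr1:11060025-11060268 on the minus strand. The AMD1 stretch is chr6:110874535-110874769 and the SAT1 stretch is chrX:23782923-23783172, both on the plus strand.
ODC1: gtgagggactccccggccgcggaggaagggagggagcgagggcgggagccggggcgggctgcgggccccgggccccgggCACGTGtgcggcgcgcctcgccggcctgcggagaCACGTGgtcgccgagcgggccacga
SRM: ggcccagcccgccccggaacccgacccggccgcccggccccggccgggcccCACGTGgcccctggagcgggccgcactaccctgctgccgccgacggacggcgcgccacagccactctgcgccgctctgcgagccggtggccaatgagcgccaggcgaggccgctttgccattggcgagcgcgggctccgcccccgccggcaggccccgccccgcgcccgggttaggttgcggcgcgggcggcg
AMD1: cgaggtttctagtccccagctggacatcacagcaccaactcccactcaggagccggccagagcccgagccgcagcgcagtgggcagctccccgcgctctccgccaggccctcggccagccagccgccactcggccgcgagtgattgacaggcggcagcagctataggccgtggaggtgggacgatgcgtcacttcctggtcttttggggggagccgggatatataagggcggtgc
SAT1: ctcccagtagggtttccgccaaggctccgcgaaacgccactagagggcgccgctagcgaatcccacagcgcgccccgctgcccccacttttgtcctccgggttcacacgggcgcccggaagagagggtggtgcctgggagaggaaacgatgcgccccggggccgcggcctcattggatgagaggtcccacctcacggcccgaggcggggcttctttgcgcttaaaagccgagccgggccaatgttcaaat
The ODC1 stretch held 2 E-boxes, with the first base at −29 and at 6 from the RefSeq start site, and the SRM stretch held 1, at −199. No CACGTG was found in the other ODC1 window or in the windows of AMD1, SAT1, SMS, OAZ1 and OAZ2. On either strand, 7.23% of 34943 promoter windows of the same length hold this motif. The palindromic cyclic AMP element TGACGTCA, found in 1.84% of windows, and the composite C/EBP-ATF element TGATGNAA, found in 3.62%, had no match in the windows of these 7 genes. The antioxidant element TGACNNNGC, found in 13.3% of windows, had 1 match in the other ODC1 window, at −5. A match is a description of the letters and not of binding.

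ODC1, ornithine decarboxylase, makes putrescine and is the first and rate-limiting enzyme of the pathway (chr2:10439968-10448504, minus strand, ENSG00000115758, GRCh38). It was at 131.6, 140.0 and 150.0 CPM in control 1, 2 and 3 and at 317.7, 336.9 and 307.6 CPM in Sev 1, 2 and 3. Every Sev library was far above every control library. The mean went from 140.6 ± 9.21 to 320.7 ± 14.9 CPM (SD, n = 3), a 2.28-fold rise (log2 fold change 1.19, SE 0.082, adjusted p = 9.49e-05, edgeR). ODC1 was at rank 159 by p-value among all features, and 9.99% of them had a higher log2 fold change. The snoRNA SNORA80B lies within an intron of ODC1 on the same strand and shares no exonic base with it. It had 46, 33 and 54 counts in control and 157, 221 and 152 in Sev, which is 1.01 and 4.63 CPM on average (4.56-fold, SE 0.24 on the log2 scale, adjusted p = 0.000436, edgeR). Reads of SNORA80B may not be told apart from those of unspliced ODC1 RNA.

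**Figure D1:**
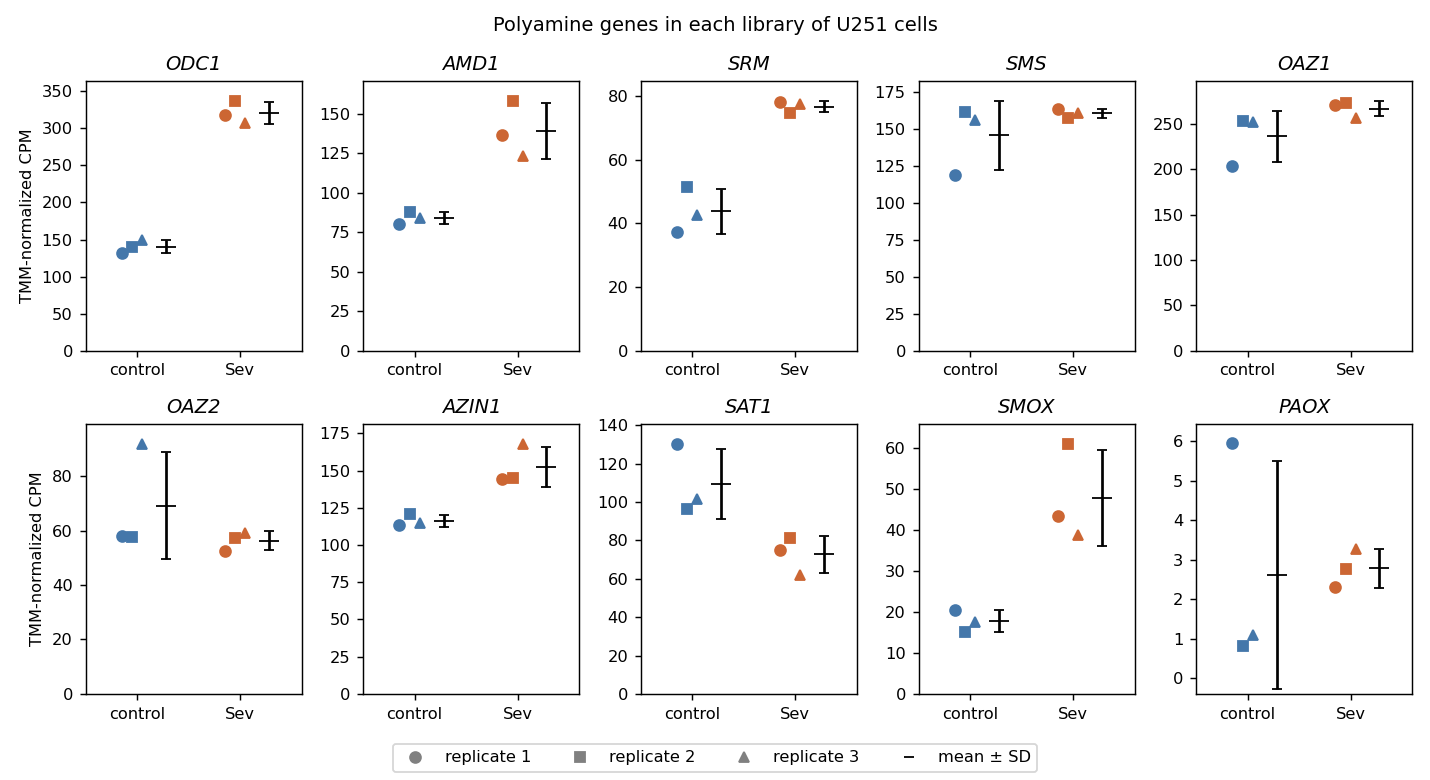
TMM-normalized CPM (vertical axes, each with its own scale) of the 10 polyamine genes in control and Sev libraries, with a symbol per replicate and bars for mean ± SD. ODC1, AMD1, SRM, AZIN1 and SMOX lie higher and SAT1 lower in all 3 Sev libraries, whereas control 1 stands apart in PAOX at 5.96 CPM and control 3 in OAZ2 at 91.8 CPM, and the lower end of the PAOX control bar lies below 0 because its SD exceeds its mean.

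AMD1, S-adenosylmethionine decarboxylase, supplies the aminopropyl donor for both later steps (chr6:110874770-110895713, plus strand, ENSG00000123505). It was at 80.3, 87.8 and 83.8 CPM in control and at 136.3, 158.1 and 123.0 CPM in Sev. The groups did not overlap, and AMD1 rose 1.66-fold (log2 fold change 0.73, SE 0.10, adjusted p = 0.00133, edgeR). SRM, spermidine synthase, adds the first aminopropyl group to putrescine (chr1:11054584-11060024, minus strand, ENSG00000116649). It was at 37.4, 51.4 and 42.5 CPM in control and at 78.0, 74.7 and 77.3 CPM in Sev. The Sev libraries lay close together above the control libraries, and SRM rose 1.75-fold (log2 fold change 0.81, SE 0.12, adjusted p = 0.00156, edgeR). Processed copies can share reads with SRM, and its 3 copies held at most 8.92% of their summed counts. Of these copies SRMP3 fell from 1.11 to 0.21 CPM (adjusted p = 0.00144, edgeR), while SRMP2 was at 2.54 CPM in both groups.

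SMS, spermine synthase, adds the second aminopropyl group (chrX:21940573-21994835, plus strand, ENSG00000102172). It was at 118.9, 161.7 and 156.5 CPM in control and at 163.4, 157.3 and 161.1 CPM in Sev. The groups overlapped, since only control 1 was low, and the difference was not past the limit (log2 fold change 0.14, SE 0.12, adjusted p = 0.370, edgeR). Without control 1 the log2 fold change of SMS was 0.0042 (adjusted p = 0.970). Of the 4 synthesis enzymes, 3 were therefore higher, against 22.1% of all features, with a median log2 fold change of 0.77.

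OAZ1, antizyme 1, is the main antizyme and is itself made by a polyamine-driven frameshift during translation (chr19:2269509-2273490, plus strand, ENSG00000104904). It was at 203.9, 253.3 and 252.5 CPM in control and at 270.6, 273.0 and 257.2 CPM in Sev. The lowest Sev library lay just above the highest control library, and the difference was not past the limit (log2 fold change 0.17, SE 0.10, adjusted p = 0.192, edgeR). Without control 1, its lowest library, the log2 fold change of OAZ1 was 0.068 (adjusted p = 0.504), and with library size only it was 0.034 (adjusted p = 0.774). OAZ2, the related antizyme 2 (chr15:64687573-64703281, minus strand, ENSG00000180304), was at 58.2, 57.7 and 91.8 CPM in control and at 52.6, 57.5 and 59.0 CPM in Sev. Only control 3 stood apart, and OAZ2 was not past the limit (log2 fold change −0.30, SE 0.18, adjusted p = 0.217, edgeR). Without control 3 its log2 fold change was −0.045 (adjusted p = 0.768), and with library size only it was −0.44 (adjusted p = 0.0849, edgeR).

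AZIN1, antizyme inhibitor 1, resembles ornithine decarboxylase without its activity and binds antizyme in its place (chr8:102826357-102893864, minus strand, ENSG00000155096). It was at 113.4, 120.5 and 114.7 CPM in control and at 144.5, 144.8 and 167.7 CPM in Sev. The groups did not overlap, and AZIN1 rose 1.31-fold (log2 fold change 0.39, SE 0.086, adjusted p = 0.00819, edgeR). This call was lost with library size only, at a log2 fold change of 0.25 (adjusted p = 0.0641), and with limma on FPKM, at 0.23 to 0.24 (adjusted p from 0.0689 to 0.109). It was kept with the size factors of DESeq2, at 0.41 (adjusted p = 0.00767). The antisense gene MAILR overlaps 344 exonic bases of AZIN1 on the opposite strand and went the other way, from 4.58 to 1.98 CPM (adjusted p = 0.0266, edgeR). The libraries were strand-specific, but whether the counting used strand is not stated, so reads of AZIN1 and MAILR may not be told apart there.

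SAT1, spermidine/spermine acetyltransferase, marks the higher polyamines for export or oxidation and is the rate-limiting step of their breakdown (chrX:23783173-23786226, plus strand, ENSG00000130066). It was at 130.2, 96.7 and 101.4 CPM in control and at 74.9, 81.1 and 62.1 CPM in Sev. All Sev libraries were below all control libraries, and SAT1 was 1.51-fold lower (log2 fold change −0.59, SE 0.14, adjusted p = 0.0124, edgeR). SMOX, spermine oxidase, turns spermine into spermidine and releases hydrogen peroxide (chr20:4120980-4187747, plus strand, ENSG00000088826). It was at 20.5, 15.1 and 17.6 CPM in control and at 43.5, 61.0 and 38.8 CPM in Sev. The groups were far apart although the Sev libraries spread widely, and SMOX had the largest fold among the 6 genes that passed the test, 2.70 (log2 fold change 1.43, SE 0.19, adjusted p = 0.00095, edgeR).

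PAOX, the peroxisomal oxidase of acetylated polyamines (chr10:133379234-133391694, plus strand, ENSG00000148832), had few counts, 252, 33 and 53 in control and 87, 104 and 130 in Sev. This is 5.96, 0.83 and 1.09 CPM in control and 2.31, 2.77 and 3.28 CPM in Sev. Control 1 was above and the other control libraries were below every Sev library, so the groups overlapped and no difference was detected (log2 fold change 0.087, SE 0.67, adjusted p = 0.928, edgeR). The value rests on control 1, since without it the log2 fold change was 1.52 (SE 0.27, adjusted p = 0.00769, edgeR). The same-strand gene ENSG00000254536 shares 158 exonic bases with PAOX and went from 8.32 to 4.09 CPM (adjusted p = 0.00938, edgeR). Of the 3 catabolic enzymes, 1 was thus higher and 1 was lower, which is not far from the 22.1% and 21.5% of all features.

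**Figure D2:**
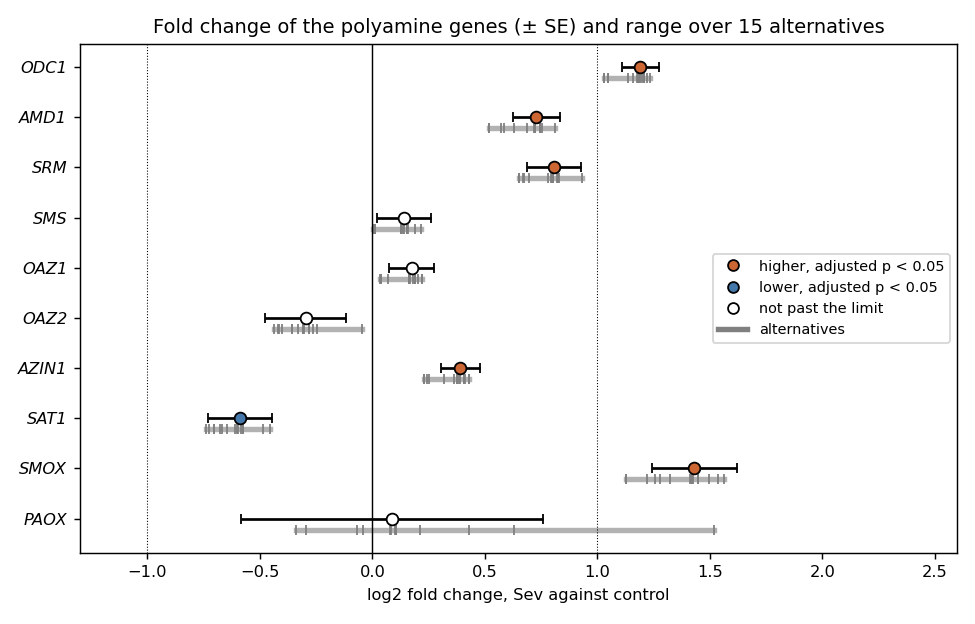
Log2 fold change of Sev against control (horizontal axis) for each polyamine gene, with circles and bars for the estimate ± SE, and grey bars and ticks for the values under 15 alternative ways of processing; dotted lines mark −1 and 1. ODC1 stays between 1.03 and 1.23 and SAT1 between −0.74 and −0.46, AZIN1 goes down to 0.23, and PAOX runs from −0.34 to 1.52.

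The deposited FPKM values (fragments scaled by gene length and library total) allow levels to be compared between genes, since they are divided by gene length. They carry no TMM scaling: for these genes they follow the count over the library total and a nearly fixed length per gene. In control, SMS was highest among the 10 genes at 61.3 ± 8.73 FPKM, followed by OAZ1 at 58.6 ± 5.98, ODC1 at 42.9 ± 2.41 (SD, n = 3) and SAT1 at 45.4, 32.3 and 34.4 in its 3 libraries. SMS and OAZ1 did not differ beyond their spread, nor did ODC1 and SAT1, whose libraries overlapped. SRM at 19.7 and AZIN1 at 16.7 FPKM came next, then OAZ2 at 7.66, AMD1 at 6.99 and SMOX at 5.11, and PAOX was lowest at 0.98. The libraries of OAZ2 and AMD1 overlapped, whereas those of SRM and AZIN1 did not.

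In Sev, ODC1 moved from the third to the first place, with 88.1, 90.1 and 88.0 FPKM in the 3 libraries. SMS at 61.3 ± 2.96 and OAZ1 at 59.9 ± 0.84 FPKM followed, and these neighbours again did not differ beyond their spread. SRM at 31.3 FPKM passed SAT1, which was at 22.4, and SMOX at 12.4 passed AMD1 at 10.5 and OAZ2 at 5.65, though SMOX and AMD1 overlapped. These places depend on the length used: the FPKM values of AMD1 correspond to a length of 1.78 to 1.80 times its 7027 exonic bases in GENCODE 29, against 1.13 to 1.32 times for the other genes. Per exonic base of GENCODE 29, on the same scale, AMD1 was at 12.5 ± 0.27 in control and 18.8 ± 1.70 in Sev, above OAZ2 at 9.46 ± 2.67 and SMOX at 15.3 ± 3.19, respectively, though the libraries of these pairs overlapped. SMS and OAZ1 also changed places on that scale, at 70.6 and 72.1 in control. ODC1 made up 16.1% to 17.2% of the summed FPKM of the 10 genes in control and 28.1% to 28.8% in Sev. The share of SAT1 was 18.5%, 12.4% and 12.9% in control and 7.40%, 7.74% and 6.32% in Sev.

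Ratios within a library do not depend on its scaling. The FPKM ratio of ODC1 to OAZ1, the enzyme to its main antizyme, was 0.796, 0.681 and 0.732 in control and 1.45, 1.52 and 1.48 in Sev. ODC1 was thus below OAZ1 in every control library and above it in every Sev library. The ratio of ODC1 to AZIN1 went from 2.58 ± 0.18 to 4.52 ± 0.55, and that of the synthases SRM to SMS from 0.322 ± 0.028 to 0.510 ± 0.0028 (SD, n = 3). In catabolism, SAT1 over SMOX was 7.52, 7.56 and 6.85 in control and 2.03, 1.57 and 1.89 in Sev. The groups did not overlap in these 4 ratios. They did in the ratio of the antizymes OAZ1 to OAZ2, which was 7.85, 9.84 and 6.16 in control and 11.5, 10.7 and 9.76 in Sev. The 5 ratios were chosen with earlier results known and are given without a test.

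**Figure D3:**
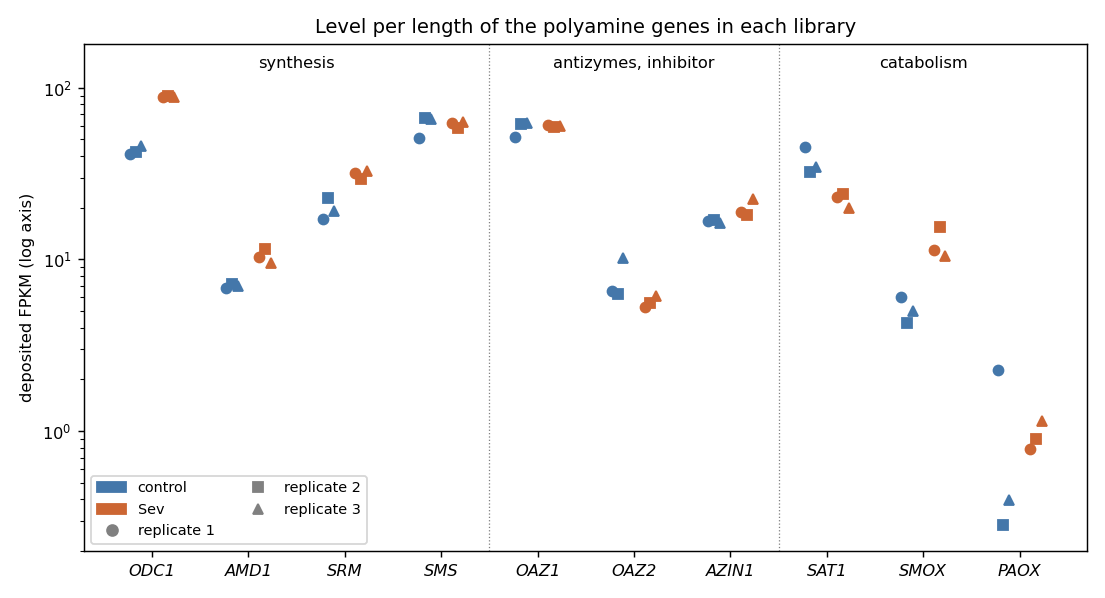
FPKM of the 10 polyamine genes (log axis) in control and Sev libraries, with a point per library. ODC1 moves above SMS and OAZ1 in Sev at 88.7 FPKM on average, SAT1 and SMOX come closer to each other, and PAOX lies lowest in both groups.

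A list of 42 further genes covered the supply, salvage, use and transport of polyamines and the regulators of the 10 genes. Of these, 37 were tested, 12 (32.4%) were higher and 5 (13.5%) were lower, against 22.1% and 21.5% of all features, with a median log2 fold change of 0.19. The other 5, SATL1, AOC1, MAT1A, ATP13A4 and SLC22A3, had at most 16 counts in a library. Past the study's threshold, 6 were higher and 0 were lower, against 11.4% and 12.0% of all features. The groups below are small, and their counts are to be read against these shares.

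Arginine and ornithine feed the pathway, and 2 of 8 genes of this supply (25%) were higher, a share near that of all features, and 0 were lower. SLC7A1, the main carrier of arginine and other cationic amino acids, was at 154.1, 176.4 and 174.3 CPM in control and at 400.7, 410.7 and 407.9 CPM in Sev. All Sev libraries lay close together above the control libraries, a 2.42-fold rise (log2 fold change 1.27, SE 0.081, adjusted p = 7.42e-05, edgeR). OAT, the mitochondrial ornithine aminotransferase, was at 63.5, 80.7 and 71.6 CPM in control and at 126.3, 123.5 and 121.1 CPM in Sev, a 1.72-fold rise (log2 fold change 0.78, SE 0.099, adjusted p = 0.000796, edgeR). The arginases were not past the limit, with log2 fold changes of 0.52 for ARG1 (adjusted p = 0.198) and 0.077 for ARG2 (adjusted p = 0.751).

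S-adenosylmethionine is the substrate of AMD1, and both tested genes of its supply were lower. MAT2B, the regulatory subunit of the synthetase, was at 47.5, 44.8 and 43.6 CPM in control and at 28.9, 26.9 and 24.4 CPM in Sev (log2 fold change −0.76, SE 0.097, adjusted p = 0.000793, edgeR). MAT2A, the catalytic subunit, was at 217.3, 232.7 and 226.3 CPM in control and at 152.7, 193.9 and 149.5 CPM in Sev (log2 fold change −0.45, SE 0.11, adjusted p = 0.0134, edgeR). The groups did not overlap in either gene, but the MAT2A call was lost without Sev 1 (log2 fold change −0.39, adjusted p = 0.0539). Methylthioadenosine, the by-product of SRM and SMS, is recycled by 5 genes of the list, of which 0 were higher and 1, MRI1, was lower (log2 fold change −0.49, adjusted p = 0.0095, edgeR).

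Spermidine is used to form hypusine, a modified lysine that the translation factor eIF5A needs, and 4 of 5 genes of this step were higher and 0 were lower. EIF5A was at 249.6, 264.3 and 290.9 CPM in control and at 439.1, 454.4 and 496.1 CPM in Sev (log2 fold change 0.79, SE 0.090, adjusted p = 0.000529, edgeR). EIF5A2 was at 19.4, 24.2 and 25.5 CPM in control and at 43.0, 34.5 and 44.2 CPM in Sev (log2 fold change 0.82, SE 0.14, adjusted p = 0.00304, edgeR). EIF5AL1 was also higher (log2 fold change 0.81, adjusted p = 0.0112), but it is a near-identical copy of EIF5A and reads may have been split between them. Its call was lost with limma on FPKM without a filter (0.38, adjusted p = 0.0596). Of the enzymes, DOHH, which completes hypusine, was at 4.40, 4.59 and 4.29 CPM in control and at 10.2, 7.64 and 9.44 CPM in Sev (log2 fold change 1.04, SE 0.15, adjusted p = 0.00157, edgeR). DHPS, which transfers the spermidine part, was not past the limit, and Sev 3 at 23.9 CPM lay within the control range (log2 fold change 0.33, adjusted p = 0.0931).

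Among 8 tested genes of transport, 3 were higher and 2 were lower. SLC3A2, the heavy chain that several amino acid carriers share and that has been linked to putrescine transport, was at 70.3, 81.9 and 101.9 CPM in control and at 184.2, 177.0 and 189.1 CPM in Sev (log2 fold change 1.12, SE 0.13, adjusted p = 0.000609, edgeR). The groups did not overlap. The carrier SLC22A2 was also higher but stayed under 1 CPM in all libraries (log2 fold change 1.41, adjusted p = 0.00796, edgeR). The vesicular carrier SLC18B1 and the lysosomal polyamine exporter ATP13A2 were lower, with log2 fold changes of −0.38 (adjusted p = 0.0340) and −0.26 (adjusted p = 0.0355). These 2 calls did not hold up when single libraries were left out, where SLC18B1 was lost in 4 of 6 fits (without control 1, control 3, Sev 1 or Sev 3) and ATP13A2 in 5 of 6 (all but the fit without control 1). In these fits the log2 fold changes ran from −0.46 to −0.32 and from −0.31 to −0.23, and the highest adjusted p-values were 0.113 and 0.120.

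Of 6 regulators, 3 were higher and 0 were lower. MYC, a transcription factor that is known to drive ODC1 through E-boxes, was at 38.3, 21.2 and 43.9 CPM in control and at 134.5, 136.1 and 53.1 CPM in Sev. It passed the test (log2 fold change 1.65, SE 0.39, adjusted p = 0.0110, edgeR) and Sev 3 lay just above the highest control library. Whether MYC took part in the changes of other genes was not tested. MYC was not past the limit with limma on FPKM without a filter, at a log2 fold change of 1.31 (adjusted p = 0.0617). PMF1, a cofactor of SAT1 transcription, rose (log2 fold change 0.57, adjusted p = 0.0034, edgeR), whereas SAT1 fell. NQO1, which binds and protects ornithine decarboxylase from breakdown, also passed the test (log2 fold change 0.38, adjusted p = 0.0164, edgeR), and this call was lost in 5 of 15 alternatives, among them the fit without Sev 1 (adjusted p = 0.0661). NFE2L2, which drives SAT1 and NQO1, was not past the limit (log2 fold change −0.11, adjusted p = 0.264). Of 3 tested relatives of the members, AZIN2, OAZ3 and SAT2, 0 passed the test in either direction.

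**Figure D4:**
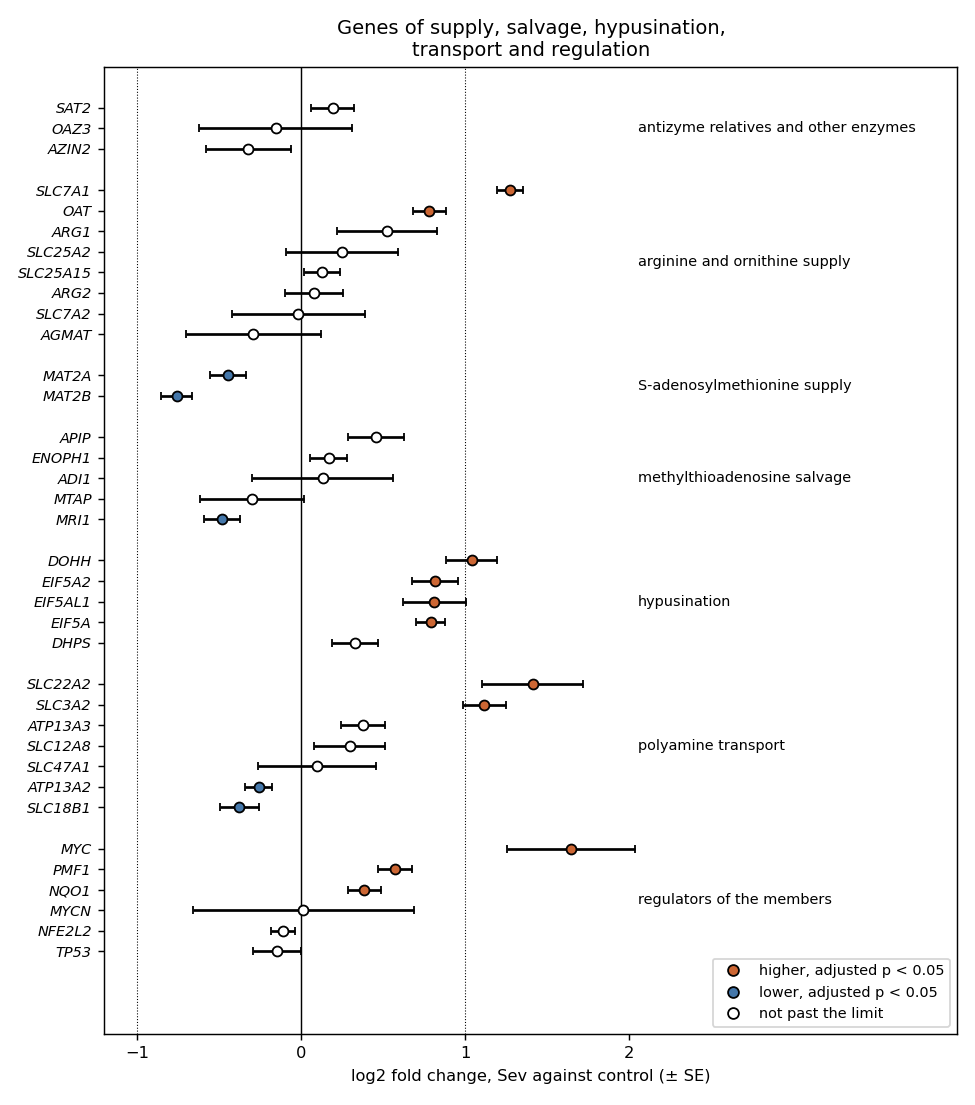
Log2 fold change of Sev against control (horizontal axis, ± SE) for 36 of the 37 tested genes around the polyamine pathway, grouped by role, with filled circles for an adjusted p under 0.05 and dotted lines at −1 and 1. In hypusination all 5 genes lie above 0 and 4 are filled, in S-adenosylmethionine supply both lie below 0 and are filled, and MYC has the largest value shown, 1.65.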

How the data were processed

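Total RNA of U251 cells was depleted of ribosomal RNA, fragmented and sequenced as strand-specific, paired-end libraries. The authors deposited raw counts per gene for 61496 features, and the deposited FPKM table covers the same rows. The submitters' processing notes name bcl2fastq 2.19, featureCounts and the build hg18. The aligner, annotation and strand setting are not given in the sources used here. Symbols were matched to 60295 of 60564 Ensembl identifiers, and 932 assembled loci had none. Positions were joined by identifier to GENCODE 29 on GRCh38 and were not converted from hg18.

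All features were fitted in R 4.3.3 with edgeR 4.0.16 (filterByExpr, TMM, glmQLFit and glmQLFTest, no covariate). The adjusted p limit was 0.05. The SE is the absolute log2 fold change over the square root of the F statistic. An exact permutation test of 3 against 3 libraries cannot reach this limit. Alternatives were DESeq2 1.42.0 (size factors, Wald test), library size only, no filter, at least 10 counts in every library, a replicate block, and fits without each library. Further alternatives used limma 3.58.1 on log2(FPKM + 1), filtered (0.5 FPKM or more in 3 libraries) or not, and on filtered log2(FPKM + 0.1). The models were tested on simulated data. Replicates of a group differed beyond sampling noise in 49.0% to 66.5% of genes, so none was a duplicate.

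The members and lists were chosen with earlier results of these data known. All 10 members are named, and of the related genes those with an adjusted p under 0.05, the 8 with the smallest p-value with full values, of which 1 is counted with its group but otherwise not reported here. MAT2A and MYC with library values, and genes named although they did not pass, were chosen after their values were seen. Copies and overlapping genes are named where their counts bear on a member. Precision is limited by 3 libraries per group and, for PAOX, by few counts.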

Additional observations from a re-analysis of the deposited data

How the results depend on the processing

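Of the 10 genes, 4 to 6 were higher and 1 was lower under every one of the 15 alternatives, and 2 to 3 were past the study's threshold in the higher direction. ODC1, AMD1, SRM and SMOX stayed higher and SAT1 stayed lower past the limit in all 15, with the highest adjusted p at 0.035 for SAT1. PAOX turned direction with library size only (−0.071), and leaving out 1 library moved it from −0.34 to 1.52. Library size only moved the median of all features to −0.15, and 38.3% of its calls over all features were higher, against 50.7% with TMM (4665 higher and 7502 lower, against 6094 and 5920). Limma called 3676 features higher and 6709 lower on log2(FPKM + 1), and 3623 and 6530 on log2(FPKM + 0.1), among 22370 tested; without the filter it called 4542 and 6814 among 47106. Of the related genes, 3 were lower with the replicate block and 3 to 4 when 1 library was left out, against 5; the count fell to 3 without control 3 or without Sev 1. Deviations of control and Sev libraries with the same number correlated at −0.063, −0.00017 and 0.066 over 15601 genes. Those with different numbers correlated at −0.119 to 0.108. With 3 libraries per group these values cannot decide whether the replicate numbers pair the libraries. Under the replicate block 5 of the 10 genes were higher and 1 was lower.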
